A study of Mus musculus with 12 samples.

Results

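The genes described here are the 45 that copy the genome and supply its building blocks, from origin licensing to the enzymes that make deoxynucleotides. They were chosen by symbol from a list that, like the other gene lists below, was drawn up with earlier results of these data known. All 45 are among the 24421 genes of the deposited table. RNA of whole adrenal glands cleaned of fat, from 2-month-old female mice on a mixed sv129-C57BL/6 background, was sequenced after polyA selection in 12 libraries. The groups were control, Abca1 cKO and Abcg1 cKO, with 4 libraries each. Abca1 cKO and Abcg1 cKO mice carried the aldosterone synthase-Cre allele, in which the Cyp11b2 locus drives Cre. Abca1 cKO mice carried in addition 2 conditional Abca1 alleles (Abca1tm1Jp) and Abcg1 cKO mice 2 conditional Abcg1 alleles (Abcg1tm1Tall). The series' design gives control mice Cre alone. The methods also allow littermate controls with 1 conditional allele and do not say whether those carried Cre. This Cre acts in cells of the outer cortex that express aldosterone synthase and in their descendants, so medullary, vascular and immune cells of the gland keep both genes.

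DNA replication begins with licensing, when the origin recognition complex, Cdc6 and Cdt1 load the MCM2-7 ring onto DNA. In S phase the kinase Cdc7 with Dbf4 and the cyclin-dependent kinases turn this ring into an active helicase by recruiting Cdc45 and GINS. Polymerases, the clamp Pcna and the enzymes that join lagging-strand fragments then copy the DNA. Many of these genes are transcribed at the border of G1 and S under E2F factors, and their transcripts are therefore low in resting tissue and high in dividing cells. In the adrenal cortex, dividing cells lie mainly near the capsule and in the outer cortex, from where they replace steroidogenic cells of the inner zones.

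The E2F recognition letters are shown first because they recur in the promoters of these genes. Promoters reaching from 250 bases before to 50 after an annotated start (RefSeq, GRCm38.p6, the same build as mm10) were at hand for 38 of the 45 genes. They were searched on both strands for TTTGGCGC, TTTCCCGC, TTTGCCGC and TTTCGCGC. Any match counted for 15 of 38 genes or 39.5%, against 2.61% of all 27025 genes with a promoter in the table and 4.44% of the 10800 that had a mean of 10 or more in the adrenal data. In the sequences below, read 5′ to 3′ on the strand of the gene, capitals mark the match and the flanks are 10 bases long.
Orc1 (chr4:108579417-108579444, plus strand): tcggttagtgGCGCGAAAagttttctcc
Cdc6 (chr11:98908003-98908030, plus strand): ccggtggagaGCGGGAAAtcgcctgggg
Cdt1 (chr8:122568037-122568064, plus strand): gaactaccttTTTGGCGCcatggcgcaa
Mcm5 (chr8:75109346-75109373, plus strand): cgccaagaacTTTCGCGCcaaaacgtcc
Mcm6 (chr1:128359735-128359762, minus strand): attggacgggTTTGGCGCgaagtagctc
Mcm7 (chr5:138172031-138172058, minus strand): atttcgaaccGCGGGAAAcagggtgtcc
Gins3 (chr8:95633508-95633535, plus strand): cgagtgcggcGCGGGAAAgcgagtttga
Rfc3 (chr5:151651201-151651228, minus strand): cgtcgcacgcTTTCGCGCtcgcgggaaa
Uhrf1 (chr17:56304118-56304145, plus strand): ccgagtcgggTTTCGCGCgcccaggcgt

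The 9 genes shown act from licensing to chromatin maintenance, and Mcm3, Pola1, Pold1, Pole2, Lig1 and E2f2 held a match as well. Mcm3, Mcm5, Mcm7 and Rfc3 held 2 matches each and Mcm6 held 3, and capitals mark a single match in each sequence shown. The other match of Mcm5 overlapped the one shown, and that of Rfc3 lies in lower case in the flank after it. The match shown for Orc1 lay 23 bases before the annotated start and that for Cdc6 134 bases before it. In Cdt1 the match lay 36 bases after the start. A match of this kind is a description of letters and does not show that a factor binds there.

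For each gene the deposited table gives the authors' mean normalised count for Abcg1 cKO and for a combined group of control and Abca1 cKO libraries, that is, reads per gene divided by a library's size factor and averaged over libraries. Differences are given here as the log2 ratio of these means with 1 added to each, Abcg1 cKO over the combined group. The table's columns of single libraries were not used, since their names are not those of any sample, and neither were the authors' own test results. No error, test or separate value for control and Abca1 cKO is therefore given, and a lower or higher mean below is a difference between 2 means and not a tested change. Raw depth is not known from such means. The normalised counts of all genes summed to 18311615 in the combined group and 18889571 in Abcg1 cKO. The mean of Abcg1 itself was 250 in Abcg1 cKO against 305 in the combined group, and that of Abca1 was 10057 and 7791. Both counts run over the whole gene, of which Cre removes a small part. Of the 8 libraries in the combined group 4 were Abca1 cKO, so its Abca1 mean is not that of control mice. By quantitative PCR against control alone, the study reported reduced Abcg1 transcripts and unaffected Abca1 transcripts in Abcg1 cKO adrenals. The cortical markers Star and Cyp11a1 had means of 507891 and 109837 in Abcg1 cKO, against 374521 and 89509 in the combined group. Their log2 ratios were 0.44 and 0.30.

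Most replication genes had a somewhat lower mean in Abcg1 cKO adrenals, and none had a mean higher by more than 1.2-fold, the fold cutoff of the study. A mean of 10 or more over all libraries was reached by 44 of the 45 genes, and among these the lowest group mean was 22.03. Of the 44, 40 had a log2 ratio below 0, against 49.7% of the 14305 genes at this level. The ratio was lower past 1.2-fold for 19 of the 44 or 43.2%, where 12.2% of all genes were. The median log2 ratio was -0.24, beside 0.0013 over all genes. In RNA of a whole gland, fewer dividing cells and less RNA per cell cannot be told apart.

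The differences were small for most of the machinery and large for a few genes. At the cutoff of 1.2-fold, Pola1 lay just past it at a log2 ratio of -0.27 and Mcm6 just short of it at -0.26. Past 1.5-fold 5 genes were lower, namely Rrm2, Chaf1b, Tk1, Uhrf1 and Cdc6, against 3.26% of all genes, and none was higher past it, against 2.59%. These shares run over genes of all levels and were not taken by level. Chaf1b, Tk1, Uhrf1 and Cdc6 lie at a mean from 10 to 100, where log2 ratios of all genes had a standard deviation of 0.58. Rrm2 lies at a mean from 100 to 300, where it was 0.30. Summed over the 45 genes, the authors' means came to 14811 in the combined group and 13262 in Abcg1 cKO.

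**Figure D1:**
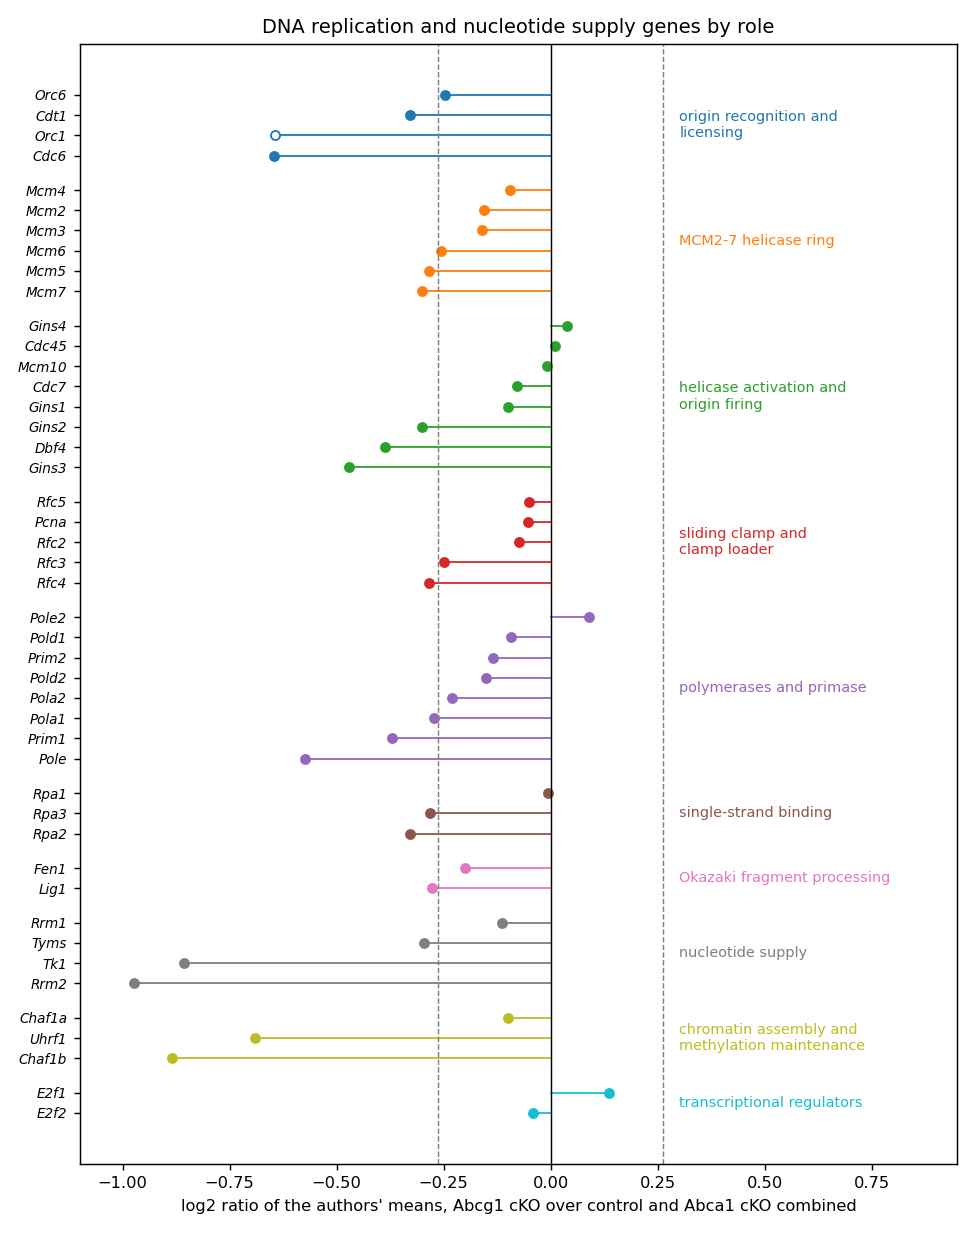
log2 ratio of the authors' mean normalised counts (Abcg1 cKO over the combined group of control and Abca1 cKO) for the 45 genes grouped by role. Points are single genes without an error, the open point (Orc1) lies under a mean of 10, and dashed lines mark 1.2-fold. Points reach from -0.97 for Rrm2 to 0.14 for E2f1, and none lies past the right-hand line.

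Among the 45 genes, the largest difference was in nucleotide supply. Rrm2, the small subunit of ribonucleotide reductase that is made in S phase, had a mean of 190 in the combined group and 96.4 in Abcg1 cKO. Its log2 ratio was -0.97, and 141 of the 14305 genes had a lower ratio. Tk1, the cytosolic thymidine kinase of S phase, stood at 87.8 and 48.1 with a log2 ratio of -0.86. Rrm2 lies at chr12:24708241-24714146 and Tk1 at chr11:117815526-117826092 (GENCODE M21, GRCm38). These 2 genes had means in Abcg1 cKO at 0.507 and 0.547 of the combined group. Tyms, thymidylate synthase, was at 191.7 and 156 (log2 ratio -0.30). Rrm1, the large reductase subunit, whose protein is present through the cell cycle, was at 875 and 808 with a log2 ratio of -0.11. Per kilobase of exon, Rrm1 had 219 normalised counts and Rrm2 86.7 in the combined group, and in Abcg1 cKO 202 and 44.0.

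The paralogs of these enzymes that serve resting cells had nearly level means. Rrm2b, the reductase subunit used outside S phase, had a log2 ratio of 0.05 with means of 722 and 746. Tk2, the mitochondrial thymidine kinase, had a log2 ratio of -0.11. Of 31 other genes of nucleotide supply, which include de novo purine and pyrimidine synthesis, 1 was lower and 2 were higher past 1.2-fold. Over all genes 12.2% were lower and 10.4% higher. The median log2 ratio of the list was 0.01. The lower gene was Dctd, dCMP deaminase, which provides substrate to thymidylate synthase, at 93.3 and 61.0 (log2 ratio -0.61). The higher genes were Shmt1, a cytosolic enzyme of folate metabolism, and Impdh2, which acts in guanine nucleotide synthesis, with log2 ratios of 0.38 and 0.30.

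The promoters of Rrm2 and Tk1 are shown because neither held any of the E2F letters listed above, from TTTGGCGC to TTTCGCGC. With the shorter cores GGCGGG and GCGGGA added to the search, Rrm2 held a match and Tk1 did not. Capitals mark GC boxes (GGGCGG) and CCAAT boxes (CCAAT) on either strand.
Rrm2 (chr12:24708004-24708303, plus strand): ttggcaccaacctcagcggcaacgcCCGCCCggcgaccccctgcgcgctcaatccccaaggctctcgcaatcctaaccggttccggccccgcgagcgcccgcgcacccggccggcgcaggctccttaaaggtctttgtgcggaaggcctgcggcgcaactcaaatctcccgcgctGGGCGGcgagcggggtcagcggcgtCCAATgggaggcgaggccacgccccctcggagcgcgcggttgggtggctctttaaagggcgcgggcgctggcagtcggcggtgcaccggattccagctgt
Tk1 (chr11:117825965-117826264, minus strand): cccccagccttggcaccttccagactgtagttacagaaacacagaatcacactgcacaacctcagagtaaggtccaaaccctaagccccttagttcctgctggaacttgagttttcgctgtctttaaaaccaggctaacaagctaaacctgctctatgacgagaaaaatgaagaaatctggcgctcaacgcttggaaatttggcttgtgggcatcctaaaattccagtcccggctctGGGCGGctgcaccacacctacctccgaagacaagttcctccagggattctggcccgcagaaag

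Rrm2 held GC boxes 222 and 72 bases before the start and a CCAAT box 48 bases before it, and Tk1 held a single GC box 10 bases before the start. Chaf1b, whose ratio lay between those of Rrm2 and Tk1, held 5 GC boxes and neither a CCAAT box nor the E2F letters listed above. Across the promoters at hand, 30 of 38 replication genes or 78.9% held a GC box, against 67.7% of genes with a mean of 10 or more. A CCAAT box was present in 60.5% of them and in 42.4% of genes at that level.

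Among genes that assemble chromatin on new DNA or maintain its methylation, Chaf1b and Uhrf1 had much lower means and Chaf1a did not. Chaf1b, the p60 subunit of chromatin assembly factor 1, was at 82.5 in the combined group and 44.2 in Abcg1 cKO (log2 ratio -0.88). Uhrf1, which brings the maintenance methyltransferase to newly copied DNA, was at 106.5 and 65.6 (log2 ratio -0.69). Chaf1a, the large subunit of the same assembly factor, was at 129.3 and 120.6 with a log2 ratio of -0.10, although 33.6% of its exon length is shared with exons of Ubxn6. Dnmt1, the maintenance methyltransferase, lies outside the 45 genes and had a log2 ratio of 0.14. Of 10 other genes of chromatin duplication, 2 were lower past 1.2-fold and none was higher, beside 12.2% of all genes lower and 32.1% of those with a mean from 10 to 100, where both lie. These were Asf1b, a histone chaperone of dividing cells, at a log2 ratio of -0.75, and Hells, a chromatin remodeller, at -0.52.

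In origin licensing, the loading factors present at low level had the lower ratios. Cdc6 had a mean of 35.0 in the combined group and 22.03 in Abcg1 cKO, a log2 ratio of -0.65. Cdt1, its partner in loading MCM rings, was at 81.9 and 65.0 (log2 ratio -0.33). Orc6 was at 287 and 242 (log2 ratio -0.25). Orc1, the origin recognition subunit whose level varies through the cell cycle, had means of only 9.21 and 5.54 and was left out of the counts, with a log2 ratio of -0.64. The other subunits Orc2, Orc3, Orc4 and Orc5, which cells keep outside S phase as well, had log2 ratios of 0.01, -0.07, -0.10 and -0.17. Gmnn, geminin, which binds Cdt1 and blocks it, had a log2 ratio of -0.16.

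All 6 subunits of the MCM2-7 ring had a lower mean, and their ratios lay close together. Mcm7 had the lowest log2 ratio at -0.30, with means of 708 and 575, followed by Mcm5 at -0.29. Mcm6, Mcm3 and Mcm2 were at -0.26, -0.16 and -0.16, and Mcm4 was nearest to 0 at -0.09. Mcm7 and Mcm5 were past 1.2-fold, and the median log2 ratio of the ring was -0.21. All 6 lie at a mean from 300 to 1000. Of all genes at that level, 5.96% were lower past 1.2-fold and 51.6% had a log2 ratio below 0. The subunits join in a single complex in equal number, but their transcripts differed per kilobase of exon from 94.7 for Mcm5 to 271 for Mcm2 in the combined group. In Abcg1 cKO the same range was from 77.7 to 243.

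Genes that activate the helicase were split. Gins3, a subunit of the GINS complex, had a mean of 86.5 in the combined group and 62.2 in Abcg1 cKO (log2 ratio -0.47). Dbf4, the activating subunit of the Cdc7 kinase, was at 73.4 and 55.9 (log2 ratio -0.39). The kinase gene Cdc7 itself was at 177 and 168, with a log2 ratio of -0.08. Gins2 had a log2 ratio of -0.30, but 70.7% of its exon length overlaps exons of Gse1, so its count is uncertain. Gins1 and Mcm10, a factor that binds the active helicase, had log2 ratios of -0.10 and -0.01. Cdc45 and Gins4, with ratios of 0.01 and 0.04, were among the 4 genes with a ratio above 0. Per kilobase of exon, Gins4 was at 416.5 normalised counts in the combined group, while Gins1, Gins2 and Gins3 were at 36.01, 21.5 and 31.9.

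Among the polymerases, Pole and Prim1 had the lowest ratios. Pole, the catalytic subunit of the leading-strand polymerase, was at 91.3 in the combined group and 61.0 in Abcg1 cKO, a log2 ratio of -0.57. Prim1, the catalytic primase subunit, was at 83.8 and 64.7 (log2 ratio -0.37). Pola1 and Pola2 of the polymerase that begins each new strand were at -0.27 and -0.23. Prim2, Pold1 and Pold2 had log2 ratios of -0.14, -0.09 and -0.15. Pole2, the second subunit of the Pole complex, had the opposite sign to Pole, at 59.7 and 63.6 with a log2 ratio of 0.09. Of these 8 genes 3 were lower past 1.2-fold, beside 12.2% of all genes. The share of all genes was 32.1% at a mean from 10 to 100, where Pole and Prim1 lie. It was 15.4% from 100 to 300, where Pola1 lies.

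Of the clamp and single-strand binding genes, Pcna and Rpa1 were nearly level between the groups and Rpa2 and Rpa3 were lower. Pcna, the sliding clamp, was the most abundant of the 45 per kilobase of exon, at 1071 normalised counts in the combined group and 1031 in Abcg1 cKO. Its means were 1625 and 1565 and its log2 ratio was -0.05. Of the clamp loader, Rfc4 and Rfc3 had log2 ratios of -0.28 and -0.25, and Rfc2 and Rfc5 of -0.07 and -0.05. Rpa1, the large subunit of replication protein A, was at 1386 and 1381 (log2 ratio -0.01). Its smaller partners Rpa2 and Rpa3 were at -0.33 and -0.28 and both past 1.2-fold. Lig1 and Fen1, which join and trim Okazaki fragments, had log2 ratios of -0.28 and -0.20, and 84.2% of the exon length of Fen1 overlaps exons of Tmem258 or Gm10143.

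Where strand was not used, reads from exon parts shared with another gene may not be assignable to a single gene. How such reads were treated in counting is not stated in the sources at hand. Besides Gins2, Fen1 and Chaf1a, the genes Orc1, Mcm7, Rfc2, Rfc4, Rfc5 and Pole2 shared from 11.9% to 19.1% of their exon length with another gene. Pcna and Tyms have annotated pseudogenes, and since only uniquely mapped reads were counted, reads that fit both were left out of their counts.

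The E2F genes in the list had means close to those of the combined group. E2f1, an activator of S-phase transcription, was at 273 in the combined group and 300.3 in Abcg1 cKO, with a log2 ratio of 0.14, the highest of the 45. E2f2 was at 81.8 and 79.5 (log2 ratio -0.04). E2f7 and E2f8, repressors that are themselves made in S phase, had low means of 18.4 and 22.1 in the combined group and log2 ratios of -0.62 and -0.68. Of 30 other E2F, Rb and G1/S regulators, 7 were lower and 3 higher past 1.2-fold. Over all genes the shares were 12.2% and 10.4%, and at a mean from 10 to 100 they were 32.1% and 17.2%. Ccna2, the cyclin of S and G2 phase, was at 168 and 88.5 (log2 ratio -0.92) and Fbxo5, an inhibitor of the anaphase-promoting complex, had a log2 ratio of -0.69. Ccne2, a cyclin of the entry into S phase, was at -0.42, and its paralog Ccne1 was at 77.8 and 93.9 with a log2 ratio of 0.27. Cdkn2b, an inhibitor of Cdk4 and Cdk6, was at 94.0 and 133 with a log2 ratio of 0.50. Cdkn1a, which encodes p21, had a log2 ratio of 0.24, short of 1.2-fold. Of the other Cdk inhibitor genes in the list, Cdkn1c was higher past 1.2-fold (log2 ratio 0.29) and Cdkn2a was lower past it (-0.34). Cdkn1b, Cdkn2c and Cdkn2d had log2 ratios of 0.14, 0.03 and -0.03.

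Genes with lower counts had lower ratios, and the same held over the whole table. Of 14 replication genes with a mean from 10 to 100, 10 were lower past 1.2-fold, against 32.1% of all genes at that level. From 100 to 300 it was 7 of 16, against 15.4%. From 300 to 1000 it was 2 of 12, against 5.96%, and at 1000 or more neither of the 2 genes (Pcna and Rpa1) was, against 1.96%. In the first 3 of these ranges the share of replication genes was above that of all genes. The median log2 ratio of the replication genes in the 4 ranges, from low to high, was -0.38, -0.25, -0.16 and -0.03, and that of all genes was -0.09, -0.04, -0.01 and 0.05.

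**Figure D2:**
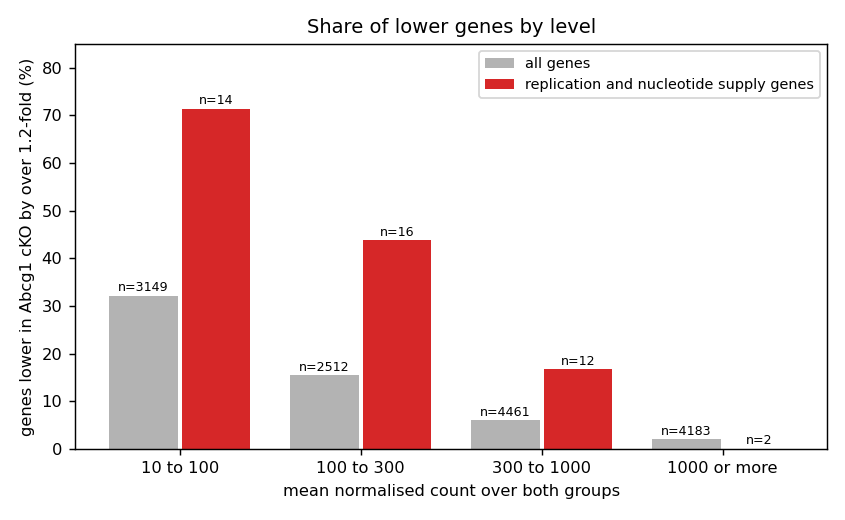
Percentage of genes whose mean was lower in Abcg1 cKO by over 1.2-fold, for all genes (grey) and replication and nucleotide supply genes (red), in 4 ranges of the mean normalised count. The share of replication genes is 71.4% at 10 to 100 and 0 at 1000 or more, and that of all genes goes from 32.1% to 1.96%. Bars have no error because single libraries were not used.

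**Figure D3:**
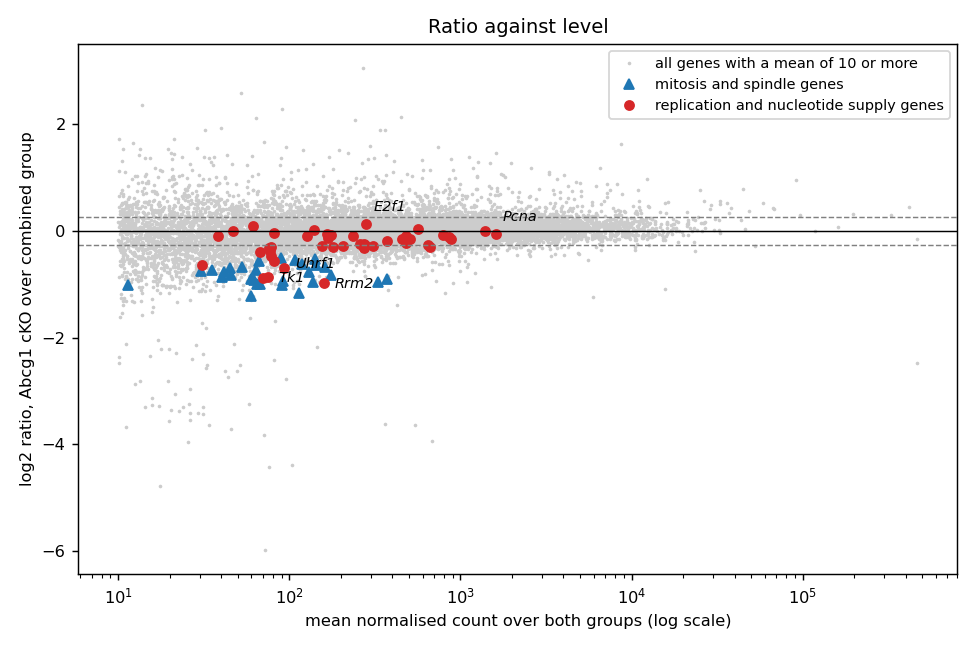
log2 ratio of the authors' means, Abcg1 cKO over the combined group, against the mean normalised count over both groups (log scale) for 14305 genes (grey), 44 replication and nucleotide supply genes (red circles) and 29 mitosis and spindle genes (blue triangles). Dashed lines mark 1.2-fold. Red points run from Rrm2 at -0.97 to near 0 for the abundant Pcna, and all blue points lie under the lower line.

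Genes of mitosis, which act after replication in the cell cycle, had lower ratios than the replication genes. All 29 measured mitosis and spindle genes were lower past 1.2-fold, with a median log2 ratio of -0.83. Their log2 ratios reached from -1.22 for Foxm1 to -0.52 for Cenpe. Only Rrm2, Chaf1b, Tk1, Uhrf1, Cdc6, Orc1 and Pole of the 45 replication genes had log2 ratios in that range. In the range of means from 100 to 300, 9 mitosis genes had a median of -0.68 and 16 replication genes one of -0.25. The difference between the lists was not tested. The medians of the other lists lay nearer to 0. Of 33 other replication genes with a mean of 10 or more, 9 were lower and none was higher (median -0.12), among them Atad5, Mtbp, Donson and Tipin, which act at replication forks or in origin firing, with log2 ratios of -0.39, -0.33, -0.30 and -0.28. Of 22 genes of the replication checkpoint and fork repair, 9 were lower and none was higher. Their median of -0.20 was -0.10 at a mean of 50 or more and -0.03 at 100 or more. Over all genes 12.2% were lower past 1.2-fold. Of those with a mean from 10 to 100, where the 9 lower checkpoint and fork repair genes lie, 32.1% were.

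**Figure D4:**
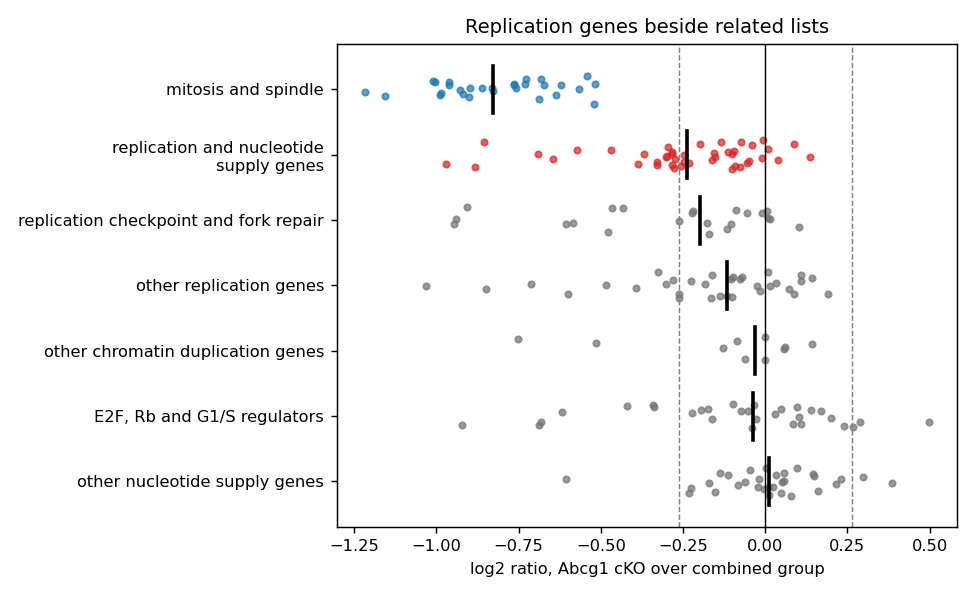
log2 ratio of the authors' means, Abcg1 cKO over the combined group, for single genes of 7 lists, with a mean of 10 or more. Points are genes, spread vertically at random, black bars are list medians and dashed lines mark 1.2-fold. Replication and nucleotide supply genes (red) have a median of -0.24 and mitosis and spindle genes (blue) of -0.83.

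The shares of promoters with a motif differed between replication and mitosis genes for some motifs and were close for others. The cell cycle homology region (CHR, searched as TTTGAA or TTCGAA), through which many genes of G2 and mitosis are controlled, was present in 20 of 25 mitosis genes with a promoter at hand and in 10 of 38 replication genes or 26.3%. Of genes with a mean of 10 or more, 16.0% held it. The E2F letters were present in 1 of the 25 mitosis genes and 15 of the 38 replication genes. With the cores GGCGGG and GCGGGA added, matches were present in 22 of the 25 and 35 of the 38. A GC box was present in 21 of the 25 and 30 of the 38, and a CCAAT box in 19 and 23. Within the replication genes, 14 with E2F letters and a mean of 10 or more had a median log2 ratio of -0.27 and 23 without them of -0.20, with 8 and 9 of them lower past 1.2-fold. These shares were not tested.

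Markers of several cell types also differed between the group means. Of 9 lymphocyte markers with a mean of 10 or more, 6 were lower past 1.2-fold and none was higher, where 12.2% of all genes were lower and 32.1% of those with a mean from 10 to 100. The 12 measured lymphocyte markers summed to 656 in the combined group and 534 in Abcg1 cKO. Most of each sum came from Ptprc alone, at 438 and 380 (log2 ratio -0.20). The log2 ratios of the 9 markers reached from -1.16 for Cd79a to -0.01 for Lck. All 10 markers of the medulla and all 8 of adipocytes were higher past 1.2-fold, where 10.4% of all genes were, with sums of 160983 and 220285 for the medulla and of 20362 and 45166 for adipocytes. Of 12 cortical markers 7 were higher and none was lower, and their sums were 1535820 and 1798610. Of 10 macrophage markers 1 was lower and 1 higher, of 8 endothelial markers 1 was lower, and of 9 fibroblast and capsule markers 1 was lower and 2 were higher. Of 3 erythroid markers with a mean of 10 or more 1 was lower and 1 higher, and 4 globin genes were listed at 0 in both groups. The part of these cell types in the lower means of the replication genes was not tested.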

How the data were processed

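Whole-adrenal RNA was sequenced in 12 libraries. By the methods and the submitters' processing notes, reads were demultiplexed (bcl2fastq 2.20.0.422), trimmed (cutadapt 4.0), checked (FastQC 0.11.9), filtered (BBTools), mapped to mm10 (STAR 2.7.10a) and counted per gene when uniquely mapped (HTSeq 0.13.5). Whether counting used strand is not stated in the sources at hand. The signal values deposited by the authors are gene counts divided by DESeq2 1.38.3 size factors and averaged over the libraries of a group, with control and Abca1 cKO as 1 group of 8. The table has 12 more columns with values of individual libraries, which were left unused because no sample label holds their names. The authors' own fold changes, standard errors, p-values and adjusted p-values were not used either.

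Log2 ratios of group means were computed with a pseudocount of 1 in Python 3.11.15 (pandas 2.3.3), for genes with a mean of 10 or more, and a gene was counted as lower or higher past the study's fold of 1.2. The planned fit across libraries, which assumed values per sample, was not made. Levels between genes were compared per kilobase of merged exons (GENCODE M21, GRCm38), and exon overlaps were counted on either strand. Promoters came from RefSeq (GRCm38.p6) and matched 38 of 45 genes by symbol. The ratio and the motif search were tested on simulated data. Members and lists were chosen with earlier results of these data known. All 45 genes were named, and of other lists up to 4 genes with the largest absolute ratio at a mean of 50 or more and the known paralogs or antagonists of members. Asf1b, E2f7, E2f8 and Cdkn2a lie under that mean. Asf1b, Cenpe, Ccne1, the Orc2 to Orc5 subunits and single cell type markers were named after their values were seen. So were Cdkn1b, Cdkn1c, Cdkn2a, Cdkn2c and Cdkn2d. Not all genes that the rule takes in are reported here. Alternatives were other pseudocounts (0.1 and 10), filters, folds, centrings and motif settings.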

Additional observations from a re-analysis of the deposited data

How the results depend on the processing

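The number of replication genes lower past the fold was 19 of 44. With a fold of 1.5 it was 5, and over the 30 genes with a mean of 100 or more, a filter added after the data were seen, it was 9, with a median log2 ratio of -0.16. With log2 ratios centred on genes with a mean of 1000 or more, whose median was 0.045, it was 23. With pseudocounts of 0.1 and 10, centring on all genes, no filter and a mean of 50 or more it lay between 18 and 20, and no replication gene was higher past the fold in any of these settings. Without the genes whose exons overlap another gene by over 10%, added after the data were seen, 16 were lower. The median over nucleotide supply genes went from -0.58 to -0.30 and that over chromatin genes from -0.69 to -0.10 at a mean of 100 or more, since Tk1, Chaf1b and Uhrf1 then drop out. With a pseudocount of 10, the ratios of Tk1, Chaf1b and Cdc6 were -0.75, -0.77 and -0.49. The share of promoters with E2F letters was 23.7% in the 250 bases before the start alone (3.70% of genes with a mean of 10 or more). With the cores GGCGGG and GCGGGA added it was 92.1%, against 71.8% of those genes.

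No paired analysis was possible because the columns used are group means that carry no replicate number. The fits across libraries, with libraries left out, or against control or Abca1 cKO alone were not run, because only group means were used. The differences were not set against the spread between animals, since the columns of individual libraries were left unused.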
